A study of Mus musculus with 24 samples.

Results

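Transcripts of the proteasome, the particle that breaks down ubiquitin-tagged proteins, were followed in mouse hearts after ischemia-reperfusion (I/R) or sham surgery. The genes were taken by name: symbols that start with Psma to Psmg followed by a digit. On the array 44 genes carried such a symbol, and 43 were kept because each array of some group showed their heart signal well above background. Psma8 was not kept. Psmc3ip, which matches the name but encodes a meiotic recombination factor, was set aside. The remaining 42 genes, of 11430 features tested, comprised 14 constitutive core subunits, 3 inducible core subunits, 20 genes with cap names (6 Psmc ATPases and 14 Psmd genes, among them the base assembly chaperones Psmd5, Psmd9 and Psmd10), 4 activators and the inhibitor Psmf1. The chaperones Psmg1, Psmg2 and Psmg3 carried older names on the array and are given separately.

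Heart pieces came from MuRF1 Tg+ mice and from wild-type (MuRF1+/+) mice of matched strain, all 12 to 16 weeks old. MuRF1, the product of Trim63, is a ubiquitin ligase of striated muscle. In I/R animals the left anterior descending coronary artery (LAD) was tied and released, and in sham animals it was not tied. From each heart, tissue below and tissue above the ligation site, or the would-be site in sham hearts, went onto separate two-colour arrays. The 8 groups were Tg+ I/R, Tg+ sham, wild-type I/R and wild-type sham, each below and above the site, with 3 arrays per group and 24 in all. Heart RNA carried Cy5 and was read against Cy3-labelled RNA pooled from whole day 1 C57BL/6 pups, which was the same on all arrays. The promoter and line of the transgene and the time of reperfusion are not given in the sources used here. Trim63 passed no test between Tg+ and wild-type sham tissue (log2 difference -0.07 ± 0.39 below and 0.03 ± 0.39 above, SE), and whether its probe reads the transgene is not known, so genotype rests on the labels.

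The proteasome has a barrel-shaped core built of alpha rings (Psma genes) at either end of beta rings (Psmb genes). Its beta5, beta1 and beta2 sites, encoded by Psmb5, Psmb6 and Psmb7, cut proteins with different preferences, and interferon-inducible Psmb8, Psmb9 and Psmb10 replace Psmb5, Psmb6 and Psmb7 in that order to make the immunoproteasome. The cap, of Psmc ATPases and Psmd subunits, binds, unfolds and feeds in ubiquitin-tagged proteins, while the activators of the Psme family open the core without ubiquitin. In heart muscle, which renews its contractile proteins throughout life, this system works together with ubiquitin ligases such as MuRF1.

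Probe sequences are shown for the exchangeable catalytic subunits because the comparison of constitutive with inducible subunits depends on probes that tell the copies apart. Each probe had 60 bases. Capitals mark bases identical between the partners at their best ungapped overlap.
Psmb5 (chromosome 14): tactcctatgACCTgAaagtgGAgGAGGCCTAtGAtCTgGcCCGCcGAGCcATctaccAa
Psmb8 (chromosome 17): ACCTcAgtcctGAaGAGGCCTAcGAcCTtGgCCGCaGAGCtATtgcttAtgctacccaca
Psmb6 (chromosome 11): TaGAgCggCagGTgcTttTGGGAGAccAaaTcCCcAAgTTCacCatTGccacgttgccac
Psmb9 (chromosome 17): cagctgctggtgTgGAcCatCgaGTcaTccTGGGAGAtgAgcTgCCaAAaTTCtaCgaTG
The Psmb5 and Psmb8 probes shared 31 of 50 overlapping bases, and those of Psmb6 and Psmb9 shared 27 of 48. The Psmb8 sequence is that of the gene's other probe; its results are set beside those of the brighter probe below. Psma4, the core gene whose call held under the most processing alternatives, was read by 2 probes of different sequence on chromosome 9, shown in lower case because no bases are compared.
Psma4 probe 1: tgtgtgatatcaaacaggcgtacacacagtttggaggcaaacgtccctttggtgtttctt
Psma4 probe 2: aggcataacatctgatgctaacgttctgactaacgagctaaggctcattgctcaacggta

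The 250 bases upstream of the start of Psmb6 and of Psmb5 (RefSeq, GRCm38.p6) are shown because Psmb6 was the catalytic subunit that passed the test in 3 of 4 comparisons with sham, while Psmb5 passed in none. Capitals mark TGACNNNGC, the core of the antioxidant response element, to which the proteasome gene activator Nfe2l1 is known to bind.
Psmb6, chr11:70525107-70525356, plus strand: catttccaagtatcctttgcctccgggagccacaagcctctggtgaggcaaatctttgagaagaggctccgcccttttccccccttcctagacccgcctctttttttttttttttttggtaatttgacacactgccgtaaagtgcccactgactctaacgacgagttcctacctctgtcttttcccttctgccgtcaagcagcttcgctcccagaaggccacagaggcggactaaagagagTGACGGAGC
Psmb5, chr14:54617996-54618245, minus strand: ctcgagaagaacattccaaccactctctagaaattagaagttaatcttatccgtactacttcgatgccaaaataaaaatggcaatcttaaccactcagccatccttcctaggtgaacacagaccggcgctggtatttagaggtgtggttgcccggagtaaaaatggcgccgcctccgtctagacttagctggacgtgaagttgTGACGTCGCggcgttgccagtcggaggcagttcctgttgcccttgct
The match lay 9 bases before the start of Psmb6 and 47 bases before that of Psmb5. Searched on both strands, TGACNNNGC occurred in 5 of the 35 members with a RefSeq promoter (14.3%; Psmb5, Psmb6, Psmc6, Psmd12 and Psmd9) and in 3338 of all 32851 promoters (10.2%). An interferon-response-like pattern, GAAA followed after any 2 bases by GAAA again, occurred in 3 of the 35 members (8.57%; Psmb3, Psmd4 and Psmd9) and in 978 of all promoters (2.98%). A match is a run of letters in this window and not a shown site of binding.

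Signal differed between arrays. On 5 of the 24 arrays, all from I/R hearts, only 9.90% to 24.2% of heart spots stood well above background, against 28.3% to 43.3% on the other arrays. These weak arrays were Tg+ I/R below replicates 2 and 3, wild-type I/R below replicate 1, and wild-type I/R above replicates 1 and 2. Without them, Tg+ I/R below and wild-type I/R above each rest on 1 array and wild-type I/R below on 2. Of the 42 genes, 29 were well above background on all 24 arrays. The arrays sat on 7 slides. The labels call the 3 arrays of a group biological replicates, and the 2 pieces of a heart are not independent of each other. Ventricular muscle markers were well above the pup pool on all arrays, with a median log2 ratio of their list between 2.74 and 4.39.

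After I/R, proteasome genes changed in both directions. Counted in either direction, their share was close to or below that of all features in each comparison with sham. In Tg+ tissue below the site the share that was higher lay under that of all features, and the share that was lower lay over it. Of the 42 genes, 3 were higher (15.4% of all features) and 11 lower (17.1%) in Tg+ I/R than in Tg+ sham tissue below the site, where 32.5% of all features passed the test (limma, Benjamini-Hochberg adjusted p under 0.05). In Tg+ tissue above the site 1 was higher (6.95% of all features) and 2 were lower (8.37%), with 15.3% in either direction. In wild-type tissue above it 2 were higher (5.97%) and 1 was lower (7.31%), with 13.3% in either direction. In wild-type tissue below it none passed in limma (5.6%), and 13 of 42 had an unadjusted p under 0.05 (20.7% of all features). These are bulk tissue RNA levels, so fewer cells of a type and less RNA per cell cannot be told apart. The median difference over the 42 genes was -0.21 in Tg+ below, -0.07 in Tg+ above, 0.07 in wild type below and 0.10 in wild type above, on the log2 scale. Over all features the 4 medians were -0.0008, 0.0012, -0.0024 and 0.0035 in that order. In all 4 comparisons the same 10 genes lay above 0 and the same 13 below 0, with both pieces of a heart among them. Ventricular muscle markers also moved in Tg+ tissue below the site, where 3 of 8 were lower. Their list median was 2.74 and 3.02 on the weak Tg+ I/R arrays and 3.91 on the normal one, against 4.16 to 4.37 on Tg+ sham arrays. Atrial markers moved above the site, where 2 of 4 were higher after I/R in Tg+ (Myl7 and Nppa; list median difference 3.01) and 1 in wild type (Sln; 3.27). Below it 1 was higher in Tg+ (1.37) and none in wild type (0.57). Their list median was 2.69 to 2.94 on Tg+ I/R and -2.59 to 2.08 on Tg+ sham arrays above the site, against -0.72 to 3.77 on wild-type I/R and -2.51 to 0.96 on wild-type sham arrays there. Of 3 epicardial markers, 2 were higher in Tg+ below, 1 in Tg+ above, none in wild type below and 2 in wild type above. The part of the ventricular, atrial and epicardial shares in these results, the calls above the site included, was not tested.

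**Figure D1:**
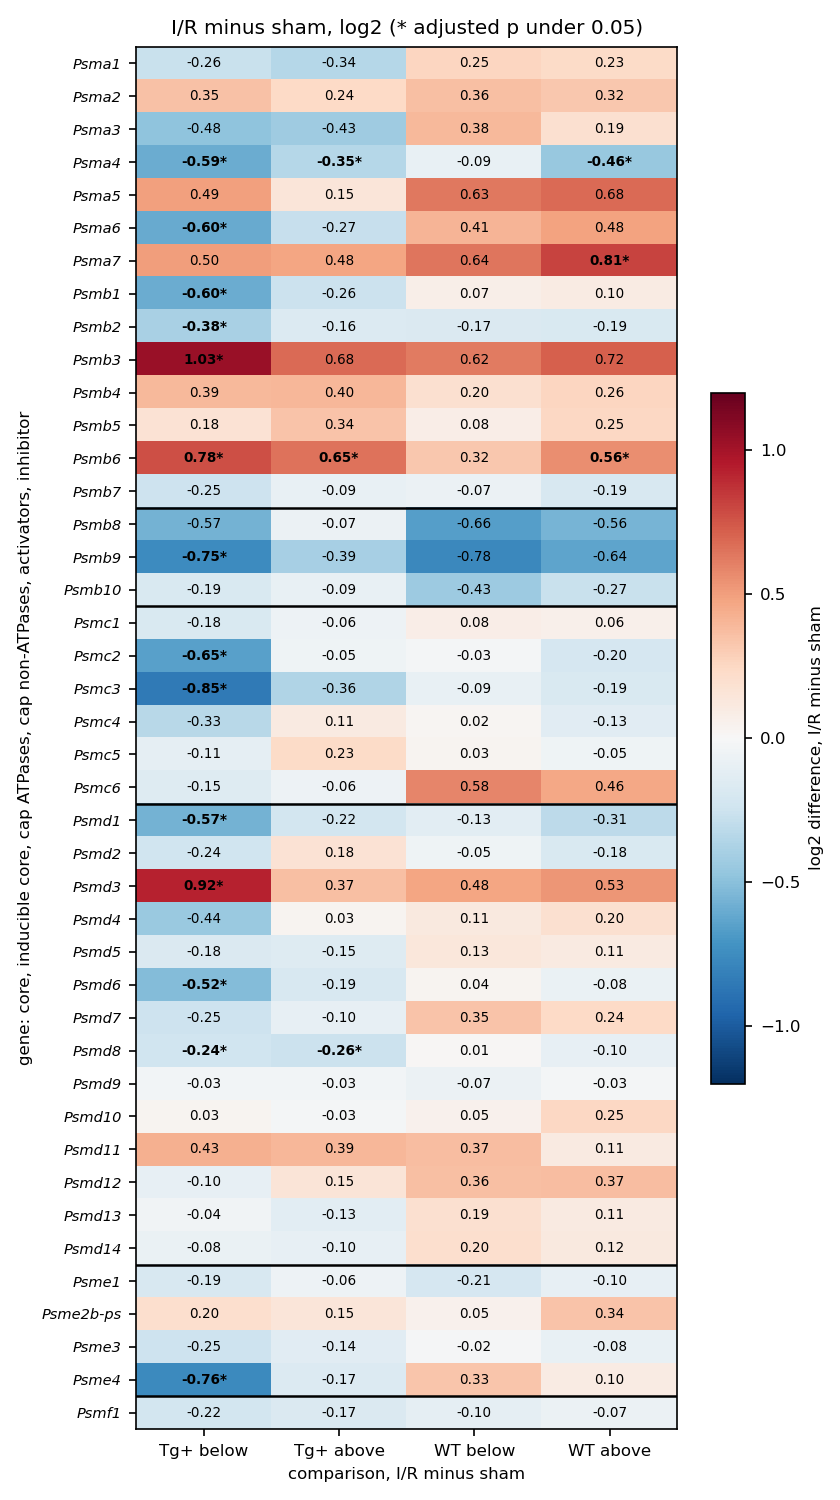
Heat map of the log2 difference of I/R minus sham (colour scale and printed value) for the 42 proteasome genes in rows, grouped by class, and the 4 comparisons in columns; bold values with a star passed the test. The widest range is in Tg+ tissue below the site, between -0.85 for Psmc3 and 1.03 for Psmb3.

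Among the catalytic core subunits, Psmb6, which carries the beta1 site that cuts after acidic residues, rose with I/R. Below the ligation site its log2 heart-to-pool ratios were 0.82, 1.31 and 1.10 in Tg+ I/R hearts, against 0.27, 0.28 and 0.36 in Tg+ sham hearts. Every Tg+ I/R array lay above every Tg+ sham array, also on the 1 array of normal signal. The log2 difference was 0.78 ± 0.17 (SE, n = 3 each; 1.71-fold; adjusted p = 0.00335). Above the site the ratios were 0.62, 0.98 and 0.85 in Tg+ I/R and 0.14, 0.13 and 0.24 in Tg+ sham hearts, a difference of 0.65 ± 0.17 (adjusted p = 0.0177). None of these 6 arrays was weak, and the groups again did not overlap. In wild-type tissue above the site they were 0.92, 1.22 and 0.53 in I/R and 0.40, 0.36 and 0.23 in sham hearts, a difference of 0.56 ± 0.17 (adjusted p = 0.0380). Both high values came from weak arrays, and without these the difference was 0.20. In wild-type tissue below the site 2 of the 3 I/R arrays read 0.42, within the sham range of 0.25 to 0.45, and the weak array read 1.11 (difference 0.32, adjusted p = 0.307).

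Psmb5, the beta5 subunit with the chymotrypsin-like site, lay above sham in all 4 comparisons by 0.08 to 0.34 and passed in none (lowest adjusted p = 0.0512, Tg+ above). Psmb7, the beta2 subunit with the trypsin-like site, differed by -0.25 to -0.07 and passed in none either. The Psmb5 and Psmb6 values thus lay above 0 and those of Psmb7 below 0, but of the 3 constitutive catalytic genes only Psmb6 passed. With 1 array left out, the Psmb6 call above the site was lost in Tg+ tissue without I/R replicate 2 (0.57, adjusted p = 0.0782), I/R replicate 3 (0.63, 0.0662) or sham replicate 1 (0.63, 0.0658). In wild-type tissue above the site it was lost without I/R replicate 1 (0.55, 0.0904) or 2 (0.40, 0.207), or sham replicate 1 (0.60, 0.0693), 2 (0.58, 0.0875) or 3 (0.51, 0.118).

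**Figure D2:**
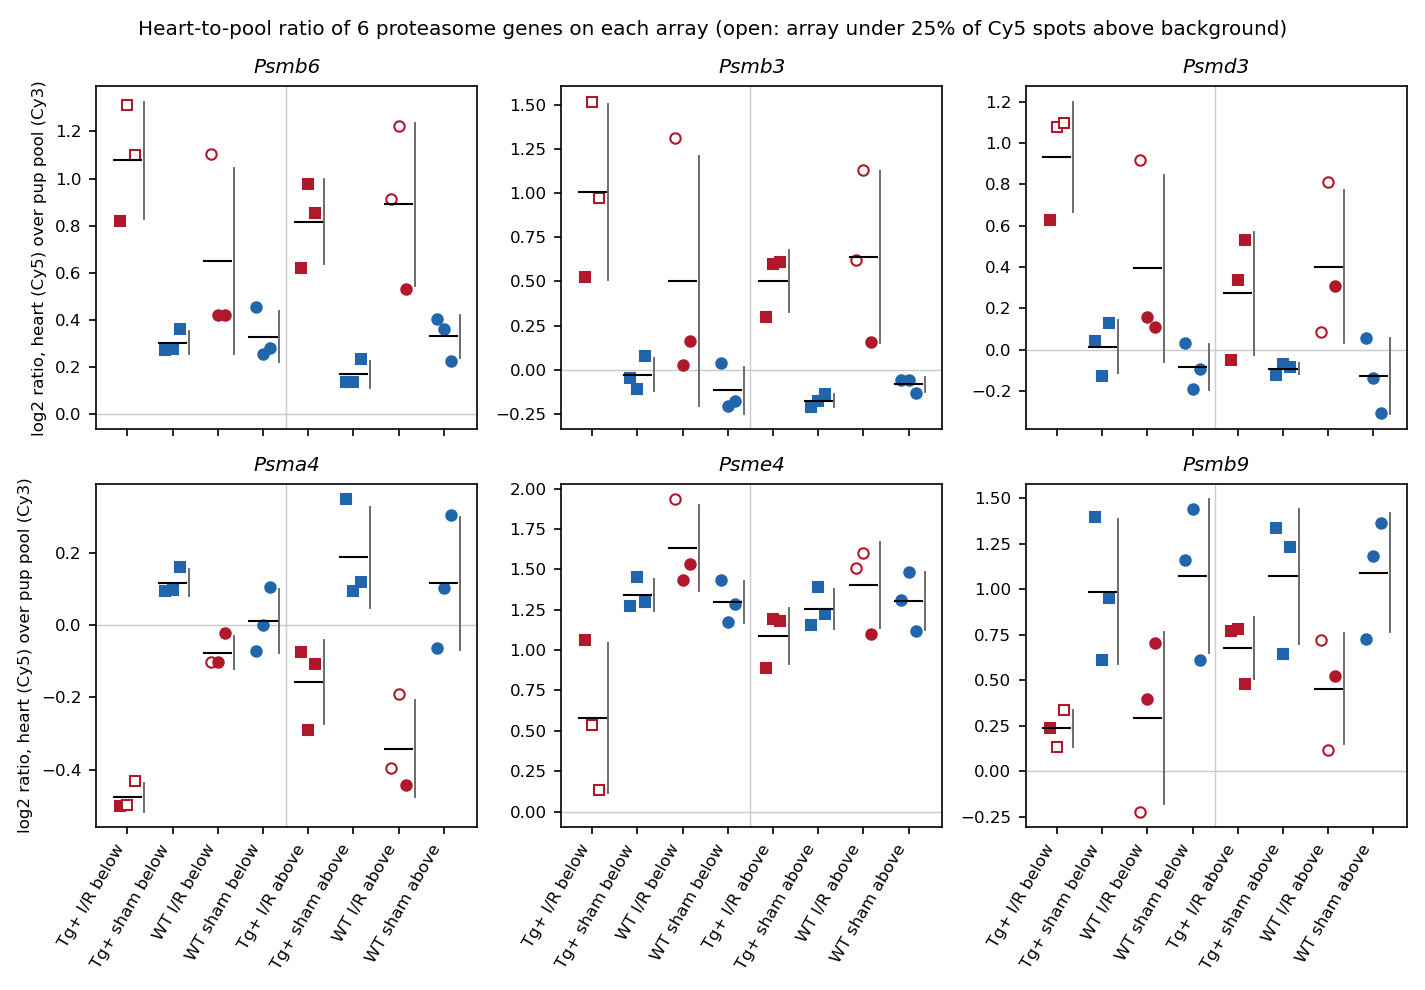
Log2 ratio of heart (Cy5) over pup pool (Cy3) on each array for Psmb6, Psmb3, Psmd3, Psma4, Psme4 and Psmb9, with I/R left of sham and Tg+ left of wild type; horizontal lines are group means, vertical lines span 1 SD each way, and open symbols are the 5 weak arrays. Psmb6 and Psma4 separate Tg+ I/R from Tg+ sham arrays in both pieces, while the highest Psmb3 and Psmd3 values are open symbols.

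Among the structural core subunits, Psma4, an alpha ring gene, fell. Below the site its log2 ratios were -0.50, -0.50 and -0.43 in Tg+ I/R hearts, against 0.09, 0.10 and 0.16 in Tg+ sham hearts. The Tg+ I/R arrays lay close together and the weak ones did not stand apart from the normal one. The log2 difference was -0.59 ± 0.09 (SE, n = 3 each; adjusted p = 0.000313), the lowest adjusted p of any member in any comparison, and it was the 1 call of 24 that was kept under all 12 alternative settings. Above the site Psma4 fell by 0.35 in Tg+ tissue (adjusted p = 0.0205) and by 0.46 in wild-type tissue (adjusted p = 0.00459). Its values there were -0.07, -0.29 and -0.11 in Tg+ I/R, and 0.35, 0.10 and 0.12 in Tg+ sham hearts. In wild-type hearts above the site they were -0.40, -0.19 and -0.44 after I/R and -0.06, 0.10 and 0.31 after sham surgery. No I/R array overlapped its sham group in these 3 comparisons. In wild-type tissue below the site the difference was -0.09 (adjusted p = 0.631) and the groups overlapped. The other Psma4 probe gave -0.45, -0.44, -0.14 and -0.38 in Tg+ below, Tg+ above, wild type below and wild type above. The Tg+ call above the site was lost without Tg+ I/R replicate 2 (-0.28, adjusted p = 0.101) or 3 (-0.37, 0.0501) or Tg+ sham replicate 1 (-0.26, 0.119).

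Psmb3, a beta ring subunit without a catalytic site, had ratios of 0.53, 1.52 and 0.97 in Tg+ I/R tissue below the site, against -0.05, -0.11 and 0.08 in Tg+ sham tissue. The groups did not overlap and the 2 weak arrays were the high ones. It rose by 1.03 ± 0.28 (adjusted p = 0.00934), by 0.78 without Tg+ I/R replicate 2 (adjusted p = 0.0682) and by 0.55 without the weak arrays. Its other probe gave -0.26 in the same comparison, so the rise was not seen by both probes. Psma7, an alpha ring gene, rose in wild-type tissue above the site, with ratios of 1.17, 1.67 and 0.62 in I/R and 0.28, 0.36 and 0.38 in sham hearts. The difference was 0.81 ± 0.21 (adjusted p = 0.0186), and the array of normal signal was the lowest of the I/R group, still above sham. The Psma7 call was lost without I/R replicate 1 (0.80, adjusted p = 0.0512) or 2 (0.55, 0.119) or sham replicate 1 (0.78, 0.0594) or 2 (0.82, 0.0533).

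Of the other core genes, 3 fell in Tg+ tissue below the site: Psma6 by 0.60 (adjusted p = 0.0204), Psmb1 by 0.60 (adjusted p = 0.0110) and Psmb2 by 0.38 (adjusted p = 0.00861). All 3 are ring subunits without a catalytic site. Psmb2 read 0.27, 0.22 and 0.14 in Tg+ I/R tissue, against 0.58, 0.60 and 0.61 in Tg+ sham tissue, and the I/R arrays of normal and weak signal lay together. The Psmb2 call was lost under 4 of 12 settings (Agilent's ratio, Cy5 alone, the slide block and the series table), with a difference as small as -0.17. Psmb1 read -0.18, -0.64 and -0.89 in Tg+ I/R tissue, with both weak arrays lowest, against 0.10, -0.11 and 0.11 in Tg+ sham tissue. Its call was lost without Tg+ I/R replicate 3 (-0.44, adjusted p = 0.0774). The Psma6 call was lost without Tg+ I/R replicate 2 (-0.53, 0.0884) or 3 (-0.47, 0.110) or Tg+ sham replicate 1 (-0.57, 0.0654) or 3 (-0.60, 0.05). Both the Psmb1 and the Psma6 call were also lost with the slide block and without the weak arrays. Over the 12 settings the difference was as small as -0.21 for Psmb1 and -0.18 for Psma6. Over the 14 core genes the median difference was -0.04 in Tg+ below, 0.03 in Tg+ above, 0.29 in wild type below and 0.25 in wild type above. In each wild-type comparison 11 of the 14 lay above 0, and in each Tg+ comparison 7 did.

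The inducible subunits lay lower after I/R in every comparison, and 1 of 12 values passed. Psmb9, the beta1i subunit that replaces Psmb6, read 0.24, 0.13 and 0.34 in Tg+ I/R tissue below the site, against 1.40, 0.61 and 0.95 in Tg+ sham tissue. The groups did not overlap, but the 0.13, from a weak array, was not well above background. The weak arrays lay on either side of the normal one, and the sham arrays were more spread than the I/R arrays. It fell by 0.75 ± 0.26 (adjusted p = 0.0345), a call kept under 5 of 12 alternative settings and lost under 7, without the weak arrays among them, with differences of -0.80 to -0.54. In the other comparisons its difference was -0.39 in Tg+ above, -0.78 in wild type below and -0.64 in wild type above (adjusted p = 0.307, 0.0874 and 0.105). Psmb8, the beta5i subunit that replaces Psmb5, differed by -0.57, -0.07, -0.66 and -0.56 in the same order, and the probe printed above gave -0.42, -0.01, -0.49 and -0.37. Psmb10, the beta2i subunit that replaces Psmb7, differed by -0.19, -0.09, -0.43 and -0.27. None of the Psmb8 or Psmb10 values passed (adjusted p = 0.0837 or higher). Psmb8 and Psmb9 varied widely among sham arrays, between 0.55 and 1.33 and between 0.61 and 1.44, so the spread between sham hearts was as large as the difference. Neither gene stood well above background on the weak Tg+ I/R below replicate 2 (0.08 and 0.13). The same held for wild-type I/R below replicate 1 (-0.22 and -0.22) and above replicate 2 (0.02 and 0.12), both weak. The part of this low signal in the lower values was not tested. The Psmb9 call was lost without Tg+ I/R replicate 2 (-0.70, 0.108) or 3 (-0.80, 0.0695) or Tg+ sham replicate 1 (-0.55, 0.161) or 3 (-0.77, 0.0689).

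Genes that work with the immunoproteasome in class I antigen presentation were also read. Of 10 tested, 4 were lower in Tg+ I/R than Tg+ sham tissue below the site, where 17.1% of all features were, among them B2m, the class I light chain (-0.69), Tap2, a peptide transporter subunit (-0.47), and Tapbpl, a peptide editor (-0.27). Above the site Tap2 fell in Tg+ tissue (by 0.39, adjusted p = 0.0488) and B2m in wild-type tissue (by 0.75, adjusted p = 0.0396). None of the 10 rose in these comparisons, and none passed in wild-type tissue below the site. The median over the 10 was -0.25 in Tg+ below, 0.06 in Tg+ above, -0.22 in wild type below and -0.18 in wild type above. Neutrophil markers moved the other way: all 4 tested were higher after I/R in both Tg+ pieces and in wild type below, and 3 in wild type above. Their list median lay between 0.13 and 0.43 on Tg+ I/R arrays below the site and between -1.44 and -1.33 on Tg+ sham arrays there. Of 9 macrophage markers 3 were higher in Tg+ below, 4 in Tg+ above, none in wild type below and 2 in wild type above, and none was lower. Of 7 endothelial markers 2 were lower and 1 higher in Tg+ below, 1 was higher in Tg+ above, 2 were lower in wild type below and 3 in wild type above. Of 10 lymphocyte markers 1 was detected well enough to be tested, and it passed in none. Of all features, 15.4% were higher and 17.1% lower in Tg+ below, and 6.95% and 8.37% in Tg+ above. In wild type above 5.97% were higher and 7.31% lower, and in wild type below 5.6% passed in either direction. The part of these cell types in the inducible subunit values was not tested.

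**Figure D3:**
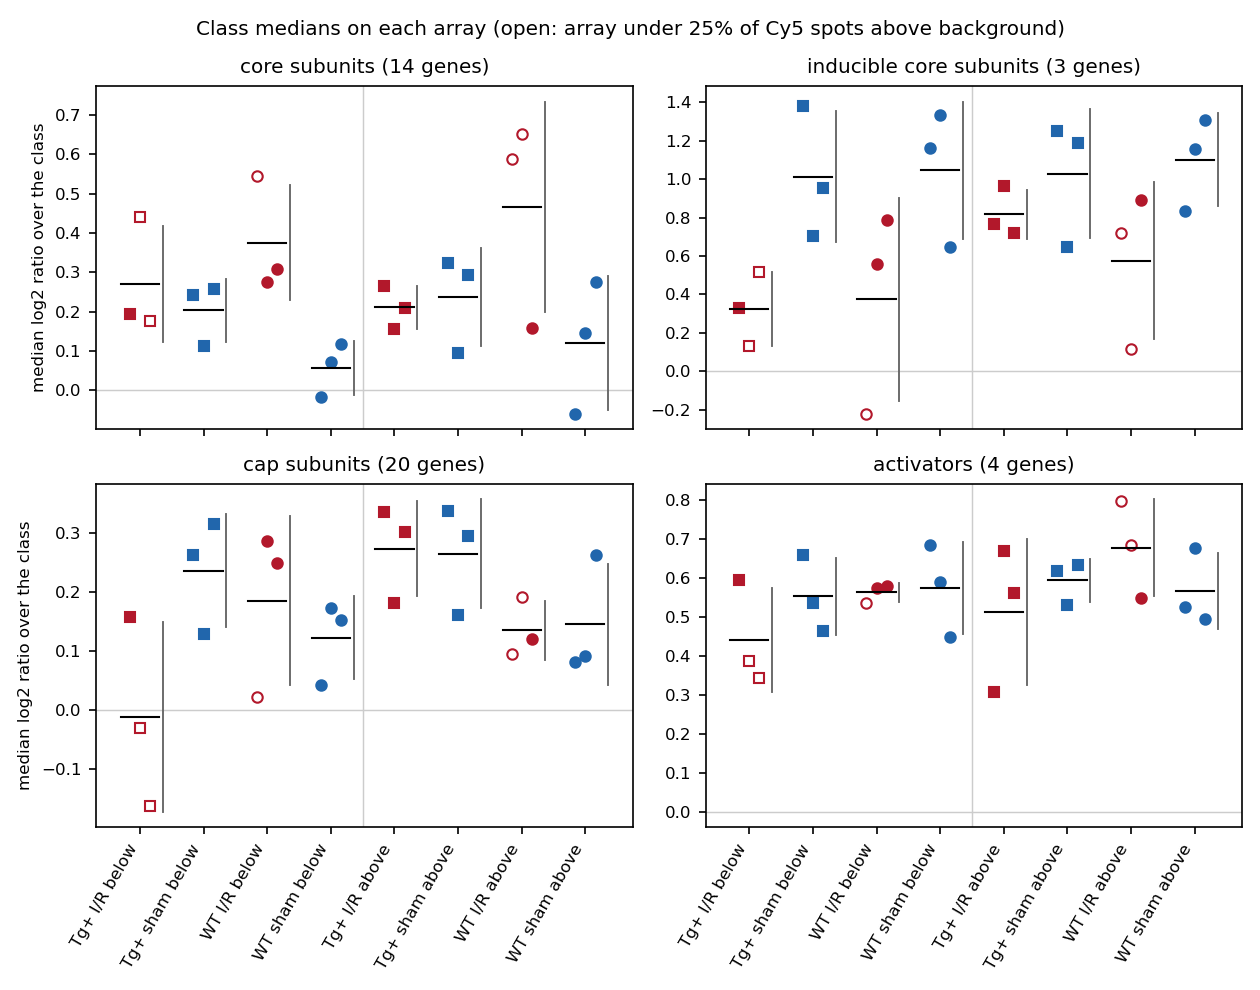
Median log2 ratio of heart over pup pool on each array for the core, inducible core, cap and activator genes, with I/R left of sham and Tg+ left of wild type; horizontal lines are group means, vertical lines span 1 SD each way, and open symbols are weak arrays. The inducible medians of I/R arrays reach the lowest values, on weak arrays where Psmb8 and Psmb9 were not well above background. The cap medians of the 2 weak Tg+ I/R arrays below the site lie under those of all other arrays.

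The cap ATPases, the motor ring that unfolds substrates, all lay below 0 in Tg+ tissue below the site (6 of 6, median -0.26), and 2 fell. Psmc2 read -0.04, -0.35 and -0.42 in Tg+ I/R tissue, against 0.45, 0.26 and 0.44 in Tg+ sham tissue, a difference of -0.65 ± 0.13 (adjusted p = 0.00129). Psmc3 read 0.47, -0.27 and -0.35 in Tg+ I/R tissue, against 0.87, 0.67 and 0.86 in Tg+ sham tissue, a difference of -0.85 ± 0.26 (adjusted p = 0.0209). For both genes the groups did not overlap and the weak arrays were the low ones. Without the weak arrays 3 of the 6 ATPases lay below 0 in this comparison, with a median of 0.00, and no ATPase passed. The Psmc3 call was also lost without either weak array (-0.74, adjusted p = 0.0912; -0.70, 0.1) or Tg+ sham replicate 1 (-0.81, 0.0651) or 3 (-0.82, 0.0582). In wild-type tissue Psmc6 had the largest difference of the ATPases, 0.58 below and 0.46 above the site, without passing (adjusted p = 0.0660 and 0.0927), and its other probe gave -0.08 and 0.06.

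Of the 14 Psmd genes, 1 rose and 3 fell in Tg+ tissue below the site. Psmd3, a lid subunit, rose by 0.92 ± 0.20 (adjusted p = 0.00333), with ratios of 0.63, 1.08 and 1.10 in Tg+ I/R against 0.04, -0.13 and 0.13 in Tg+ sham tissue. Psmd1, the large base scaffold to which the ubiquitin receptor Adrm1 binds, fell by 0.57 ± 0.12 (adjusted p = 0.00297), with ratios of 0.04, -0.02 and -0.39 in Tg+ I/R against 0.52, 0.39 and 0.43 in Tg+ sham tissue. Psmd6, a lid subunit, fell by 0.52 (adjusted p = 0.00466). The groups did not overlap for any of the 3, and every I/R array, weak or not, lay on the same side of sham. The Psmd6 call was lost under 3 of 12 settings, with a difference as small as -0.25. These were Cy5 alone, the slide block and leaving out the weak arrays, which keeps 1 Tg+ I/R array. The Psmd3 call was lost under Cy5 alone and the slide block, and the Psmd1 call under the slide block. Psmd8, another lid subunit, fell by 0.24 below the site (adjusted p = 0.0255) and by 0.26 above it in Tg+ hearts (adjusted p = 0.0316). Its 6 Tg+ I/R ratios ran from -0.30 to -0.19 and its 6 Tg+ sham ratios from -0.06 to 0.08. The Psmd8 values are small, and the call was lost without Tg+ I/R replicate 3 (-0.23, 0.0836), Tg+ sham replicate 1 (-0.23, 0.0724) or 2 (-0.23, 0.0723) below the site. Above the site it was lost without Tg+ I/R replicate 2 (-0.27, 0.0748) or 3 (-0.23, 0.126) or Tg+ sham replicate 1 (-0.23, 0.124) or 3 (-0.25, 0.102). Subunits that handle ubiquitin directly did not pass in any comparison with sham: the receptor Psmd4 differed by -0.44 to 0.20 and the deubiquitinase Psmd14 by -0.10 to 0.20. The other Psmd14 probe gave larger falls in Tg+ tissue, -0.53 below and -0.56 above the site. In wild type it gave 0.27 below and 0.03 above. Psmd11, a lid subunit linked to proteasome activity in stem cells, lay above 0 in all 4 comparisons, by 0.11 to 0.43, and did not pass (lowest adjusted p = 0.0823).

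Psme4, which encodes the activator PA200, had the highest ratio to the pup pool of all 42 genes in sham hearts (mean log2 ratio 1.30). Below the site it read 1.06, 0.54 and 0.13 in Tg+ I/R tissue, against 1.27, 1.46 and 1.30 in Tg+ sham tissue. The groups did not overlap, with the normal array closest to sham and both weak arrays lowest. It fell by 0.76 ± 0.19 (adjusted p = 0.00563), by 0.28 without the weak arrays. Its other 2 probes gave -0.51 and -0.71. In wild-type tissue below the site the ratios were 1.93, 1.43 and 1.53 after I/R and 1.43, 1.18 and 1.29 after sham surgery, with the weak array highest (difference 0.33, adjusted p = 0.325). There the other 2 probes gave -0.33 and 0.05, so the probes differed in sign in wild type. Psme1, a subunit of the interferon-inducible PA28 ring, differed by -0.21 to -0.06 and Psme3, which forms the nuclear PA28 gamma ring, by -0.25 to -0.02, without passing. The probe that the array names Psme2b-ps may read the PA28 gene Psme2, of which that sequence is a near copy. It lay above 0 in all 4 comparisons, by 0.05 to 0.34, and did not pass. Its other probe lay below 0 in all 4, at -0.32 in Tg+ below, -0.12 in Tg+ above, -0.19 in wild type below and -0.02 in wild type above, so no direction is given for it. Psmf1, the inhibitor PI31, differed by -0.22 to -0.07 and did not pass (lowest adjusted p = 0.0810). Its probe was not well above background on any weak array. The other Psmf1 probe gave -0.07 in Tg+ below, 0.06 in Tg+ above, 0.08 in wild type below and 0.001 in wild type above.

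The assembly chaperones Psmg1 and Psmg2, which pair to start the alpha ring, fell together. In Tg+ tissue below the site Psmg1 fell by 0.63 ± 0.14 (adjusted p = 0.00303) and Psmg2 by 0.64 ± 0.15 (adjusted p = 0.00417). Above the site they fell by 0.44 and 0.46 in Tg+ tissue (adjusted p = 0.0371 and 0.0409) and by 0.51 and 0.55 in wild-type tissue (adjusted p = 0.0212 and 0.0195). In wild-type tissue below the site the differences were -0.30 and -0.25 and did not pass. Unlike the member calls, these chaperone calls were not checked with arrays left out or with the slide as a block. Psmg3, of the other chaperone pair, differed by 0.06 to 0.22 and did not pass. Psmg4 was not analysed here.

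Genes that act with the proteasome were read by list. Of 11 associated factors, 2 were higher and 3 lower in Tg+ I/R than Tg+ sham tissue below the site, where 15.4% and 17.1% of all features were. The deubiquitinase Usp14 fell by 0.41, the scaffold Ecpas by 0.46 and the proteasome-binding zinc finger protein Zfand5 by 0.63, while the nuclear import factor Akirin2 rose by 0.25 and the cap-bound thioredoxin Txnl1 by 0.51. Uchl5, the other cap-bound deubiquitinase, rose in wild-type tissue below (0.39, adjusted p = 0.0412) and above the site (0.33, adjusted p = 0.0483). Ecpas fell by 0.38 in wild-type tissue above the site and Usp14 by 0.36 in Tg+ tissue above it. Of 6 genes for Nfe2l1, Nfe2l2 and the factors that process Nfe2l1, the ligase Syvn1 rose in both Tg+ pieces (0.64 below, 0.51 above) and the deglycosylase Ngly1 fell in Tg+ below (by 0.42). Nfe2l1 itself passed in none of the 4 comparisons. Of 14 genes for ubiquitin, its activation and its shuttles, the shuttle Rad23b (0.55 below, 0.54 above) and the autophagy receptor Sqstm1 (1.09 below, 1.07 above) rose in both wild-type pieces. In either direction 5.6% of all features passed below and 13.3% above. Below the site the median of the 14 was 0.35 on the weak wild-type I/R array and -0.02 and 0.01 on the others. Above it the median was 0.12 and 0.49 on the weak arrays and -0.05 on the other. Wild-type sham arrays of both pieces read -0.18 to 0.04. In Tg+ below the ubiquitin fusion gene Rps27a (2.03) and the shuttle Ubqln1 (0.64) rose, and none of the 14 fell in any comparison with sham. The calls in these lists were not checked with arrays left out or with the slide as a block.

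Tg+ was next set against wild type. In I/R tissue below the site 4 of the 42 genes were lower in Tg+ (1.71% of all features) and none higher (1.22%), with 2.92% in either direction. The activator Psme4 read 1.06, 0.54 and 0.13 in Tg+ I/R tissue, against 1.93, 1.43 and 1.53 in wild-type I/R tissue, a difference of -1.06 ± 0.19 (adjusted p = 0.0119). The others were alpha ring genes, Psma6 at -0.72 ± 0.19 (adjusted p = 0.0448), Psma3 at -0.72 ± 0.19 (0.0462) and Psma4 at -0.40 ± 0.09 (0.0335). For Psma3 the ratios were -0.12, -0.39 and -0.41 in Tg+ I/R, and 0.19, 0.40 and 0.62 in wild-type I/R tissue. The groups did not overlap for any of the 4 genes, and the normal Tg+ array was the nearest to wild type for Psme4, Psma6 and Psma3. The 2 other Psme4 probes gave -0.31 and -0.79. All 6 ATPases and 18 of 20 cap genes lay below 0 (cap median -0.18), and 32 of the 42 genes did. Among the partner genes the deubiquitinase Uchl5 was lower in Tg+ I/R tissue below the site (-0.40, adjusted p = 0.0490).

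None of these 4 calls held when the weak arrays were left out, where Psme4 differed by -0.42 and 1 other gene, Psmb2, passed at -0.36. Leaving out single arrays also ended calls. Without Tg+ I/R replicate 2 the values were -1.03 (adjusted p = 0.0789) for Psme4, -0.65 (0.180) for Psma6, -0.68 (0.168) for Psma3 and -0.39 (0.135) for Psma4. Without Tg+ I/R replicate 3 they were -0.83 (0.104), -0.59 (0.270), -0.66 (0.257) and -0.42 (0.174) for the same genes. Without wild-type I/R replicate 2 they were -1.16 (0.0507), -0.74 (0.139), -0.72 (0.146) and -0.41 (0.102), and without replicate 3 Psma6 differed by -0.69 (0.198), Psma3 by -0.61 (0.232) and Psma4 by -0.37 (0.163).

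In I/R tissue above the site none of the 42 genes passed between Tg+ and wild type (0.656% of all features; 9 members and 14.1% of all features with an unadjusted p under 0.05). In sham tissue none passed below (0.0262%) or above the site (0.035%), with 1 member each at an unadjusted p under 0.05, against 1.43% of all features below and 1.99% above. Most sham differences lay above 0 without passing: 32 of 42 lay above 0 below the site (median 0.10) and 30 above it (median 0.07), against medians of -0.01 and -0.02 over all features. For 11 genes the arrays did not overlap between Tg+ and wild-type sham tissue below the site with Tg+ higher, and 1 with Tg+ lower, against 6.37% and 7.44% of all features. Above the site 3 did not overlap with Tg+ higher and 1 with Tg+ lower, against 6.07% and 10.7%. The largest of these differences below the site was 0.29, for Psma6. The test of whether I/R acted differently in Tg+ and wild type passed for none of the 42 genes below (0.0175% of all features; 14 members and 10.5% of all features at an unadjusted p under 0.05) or above the site (0.0175%; 5 members and 8.27%). The lowest adjusted p below the site was 0.285, for Psme4 (-1.10 ± 0.26) and also for Psma6 (-1.01 ± 0.26). So the calls in Tg+ tissue and their absence in wild-type tissue are not shown to differ.

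Between tissue below and above the ligation site none of the 42 genes passed in limma in sham hearts of both genotypes (0% of all features), in wild-type I/R hearts (0.0175%) or in Tg+ I/R hearts (0.481%). At an unadjusted p under 0.05 there were 0, 2 and 14 members in that order, against 0.507%, 6.53% and 22.6% of all features. In Tg+ I/R hearts the pieces of the same replicate number deviated together (correlations of 0.14 to 0.54 over the 3 pairs). These correlations ran from -0.73 to 0.53 in wild-type I/R hearts and from -0.28 to 0.44 in sham hearts. The labels do not say that equal numbers mean the same heart. With the heart so assumed as a random block, Psmc2 passed in Tg+ I/R hearts (-0.56, adjusted p = 0.0328), as did 133 features in place of 55. In Tg+ I/R hearts 30 of 42 genes lay lower below than above the site (median -0.16), led by Psmc3 (-0.59, adjusted p = 0.201) and Psmc2 (-0.56, adjusted p = 0.0503). Psmd3 lay higher below (0.66, adjusted p = 0.112). Weak arrays were 2 of the 3 below and none of the 3 above in these hearts. The atrial marker list had medians of -2.00 to -1.01 on the Tg+ I/R arrays below and of 2.69 to 2.94 on those above (median difference of its 4 genes -2.98), and its part in these differences was not tested.

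The sign of a member's difference went with the brightness of its probe. Split by mean Cy5 signal into 14 dim (58.1 to 274), 14 middle (339 to 826) and 14 bright genes (941 to 2610 units), the median I/R difference in Tg+ tissue below the site was -0.25, -0.39 and 0.37. The 3 genes that rose there, Psmb3, Psmd3 and Psmb6, were all bright, and 10 of the 11 that fell were dim or middle, with Psme4 the exception. In wild-type tissue below the site the medians were -0.07, 0.05 and 0.36, and 13 of 14 bright genes lay above 0. Sets of all features cut the same way cover other signals, since their bright set starts at 141.5 units, and their medians lay between -0.07 and 0.03 in the 4 comparisons. In Tg+ below 453 dim features were higher and 247 lower, 557 middle features were higher and 613 lower, and 750 bright features were higher and 1096 lower. The part of brightness in the result was not tested.

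**Figure D4:**
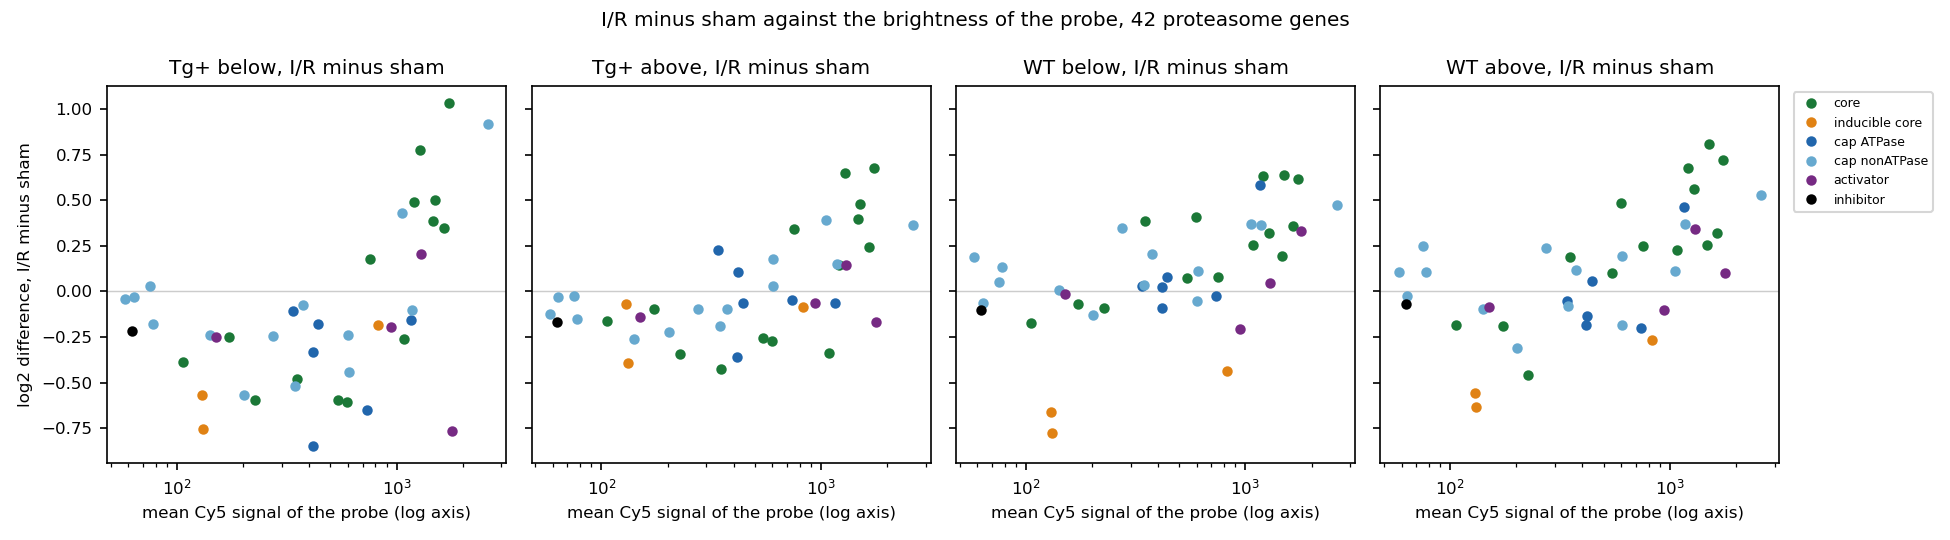
Log2 difference of I/R minus sham of the 42 genes against the mean Cy5 signal of the probe (log axis), coloured by class, in Tg+ and wild-type tissue below and above the site. Points on the left lie mostly under 0 and those on the right mostly over it, with Psme4 in Tg+ below as the bright point at -0.76.

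Leaving out the weak arrays changed how many members passed. The share of all features that passed in that fit is not given here, so these counts are not read as a result about the members. In Tg+ below 3 were higher and 3 lower, all among the 14 called before, and the median over 42 genes was -0.09. In Tg+ above, which held no weak array, 8 were higher and 3 lower with the median again at -0.07. In wild type below 4 were higher: the ATPases Psmc5 (0.26) and Psmc6 (0.40), the lid subunit Psmd7 (0.52) and the alpha subunit Psma7 (0.37). With all arrays the 2 other Psmd7 probes gave 0.07 and -0.22 there, the other Psmc6 probe -0.08 and the other Psmc5 probe 0.14. In wild type above 2 were higher, Psmd7 and the assembly chaperone Psmd10, and Psma4 was lower (-0.56), with the median at -0.04. Tg+ I/R below and wild-type I/R above hold 1 array each here, which is assumed to vary like the other groups. With the slide as a block, 23 of the 24 member calls were lost and the Psma4 call in Tg+ below was kept. Few slides held I/R and sham arrays of the same genotype and piece. Where 1 did, the core median was -0.02 in Tg+ below, -0.04 in Tg+ above, 0.15 in wild type below and 0.43 in wild type above. In those single pairs Psmb6 differed by 0.95, 0.74, 0.14 and 0.51 and Psma4 by -0.66, -0.41, -0.13 and -0.33, in the same order. The Tg+ below and wild-type above pairs each held a weak I/R array.

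For 14 members there were 17 further probes above background, which gave a second reading of the same gene. The second probe lay on the same side of 0 as the first for 14 of 17 in Tg+ below, 8 in Tg+ above, 9 in wild type below and 9 in wild type above. In each of these comparisons 4 of the 17 differed from the first probe by over 0.5. The probes of Psma4 and of Psmb8 had the same sign in all 4 comparisons. Opposite signs by their probes were seen, among others, for Psmb3 in Tg+ below, Psme2b-ps in all 4 comparisons and Psmc6 in wild type below.

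**Figure D5:**
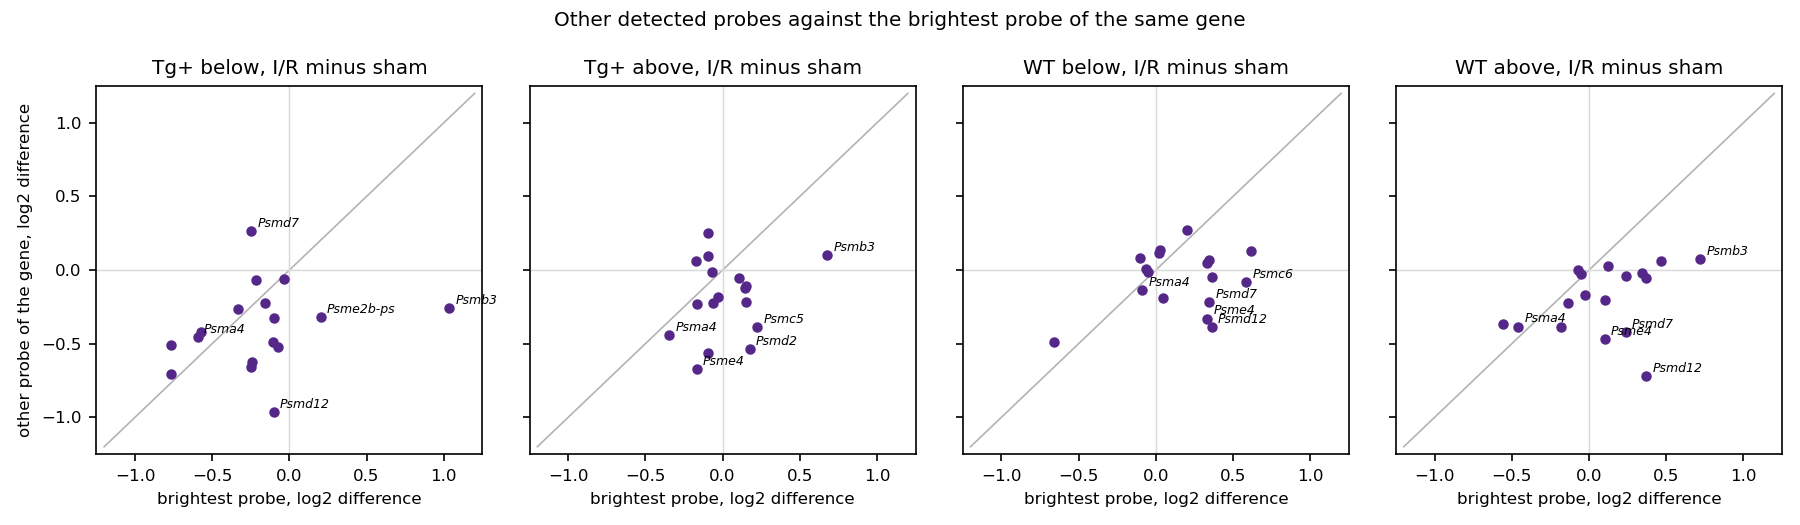
Log2 difference of I/R minus sham by the second probe of a gene against that by the probe used, for 17 probes of 14 proteasome genes; the diagonal marks equal values. Psmb3 lies far from the diagonal, at 1.03 by the probe used and -0.26 by the other in Tg+ below, while Psma4 lies near it.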

How the data were processed

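RNA from 24 heart pieces (50 ng each) was hybridised to two-colour arrays with a common Cy3 pup pool and no dye swap. The label field names Cy5 for the heart RNA while the text of the labelling protocol names Cy3-CTP, and ratios were taken as Cy5 over Cy3. The deposited intensity values are spot means and background medians from Feature Extraction 9.5.3.1, per the file headers, and are not normalized. The log10 ratio in the same files is Agilent's own, background-subtracted and dye-normalized before it was deposited, per the file headers. The deposited series table holds log2 ratio values that correlated with these ratios (0.986 to 0.999), with a centring not given in the sources used here.

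In limma 3.58.1 (R 4.3.3) background was corrected by normexp (offset 50), which shrinks ratios of dim spots, and ratios were loess-normalized within arrays, with control and outlier spots at weight 0. No spot was saturated. Of 41174 probes, 15426 stood well above background in Cy5 on each array of some group. The brightest probe represented a gene, giving 11430 features. A RefSeq gene table supplied current symbols (22951 probes matched by accession). All 24 arrays entered 1 fit of 8 group means (lmFit, eBayes) without a term for the heart. P-values were adjusted by Benjamini-Hochberg over all features within a comparison, with 0.05 as the threshold. Values after ± are standard errors of that fit. Differences are on the log2 scale, and the number of arrays limits their precision.

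Members and gene lists were chosen with earlier results of these data known. Named genes were the catalytic subunits, activators, inhibitor, chaperones, Psmd4, Psmd11 and Psmd14, every member past the threshold, the largest differences, and every partner gene past the threshold, 1 of which is not reported here. The fit was tested on simulated data with known changes. Promoters came from RefSeq. Python 3.11.15, pandas 2.3.3 and matplotlib 3.10.9 were used for summaries and plots. Alternatives tried were array weights, leaving out background correction, Agilent's ratio, Cy5 values by themselves, keeping dim probes, the deposited series table, averaging all probes of a gene, blocks for slide, replicate number or heart, fitting a comparison's arrays separately, dropping the weak arrays, and dropping each array in turn. Slides were read from the names of the array files.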

Additional observations from a re-analysis of the deposited data

How the results depend on the processing

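Counts below are members past the threshold of 42. The share of all features that passed under each setting is not given here. A higher or lower count is therefore not read as a result about the members. Array weights gave 27 for I/R against sham in Tg+ below, against 14 as reported, 19 in Tg+ above against 3, 6 in wild type below against 0 and 17 in wild type above against 3. They also gave 27 for Tg+ against wild type in I/R tissue below against 4, 9 in I/R above, 4 in sham above, 14 for below against above in Tg+ I/R hearts, 11 in wild-type I/R hearts, and 25 and 10 for the interactions below and above, against 0 as reported in these 6. The slide as a block gave 1 in Tg+ below and 0 in Tg+ above, wild type above and Tg+ against wild type in I/R below. Without the weak arrays the counts were 6 in Tg+ below, 11 in Tg+ above, 4 in wild type below and 1 for Tg+ against wild type in I/R below. With only the arrays of the comparison they were 9 in Tg+ above, 0 in wild type above and 0 for Tg+ against wild type in I/R below. Agilent's ratio and the series table each gave 1 in wild type below, 1 in Tg+ above, 9 for Tg+ against wild type in I/R below and 1 for below against above in Tg+ I/R hearts. The Cy5 channel alone gave 1 in Tg+ above and 1 for below against above in Tg+ I/R hearts, where no background correction and the heart as a random block also gave 1. The mean of all probes gave 6 in Tg+ above, and no filter on dim probes gave 1 for Tg+ against wild type in I/R below. Fewer arrays or residual degrees of freedom enter the slide block and the subsets. The cause of the changed counts was not tested for any setting.

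The replicate number as a block gave 1 for Tg+ against wild type in I/R below, against 4 as reported, and changed no other count. All 3 pairs correlated over 0.1 only for below against above in Tg+ I/R hearts (0.14 to 0.54), where this block gave 0 members; elsewhere the numbers are not shown to pair the arrays.

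With 1 array left out, the count ranged from 9 to 20 in Tg+ below, 0 to 5 in Tg+ above, 0 to 1 in wild type below and 1 to 10 in wild type above. It ranged from 0 to 21 for Tg+ against wild type in I/R below, 0 to 3 in I/R above, 0 to 12 and 0 to 2 for below against above in Tg+ and wild-type I/R hearts, and 0 to 15 for the interaction below. The highest counts came without wild-type I/R below replicate 1 (21, and 15 for the interaction), Tg+ I/R below replicate 1 (14 for Tg+ against wild type, 12 for below against above, 7 for the interaction) and wild-type I/R above replicate 3 (10 in wild type above, 3 for Tg+ against wild type above). In Tg+ above the count was 0 without I/R replicate 2, I/R replicate 3 or sham replicate 1, and 5 without I/R replicate 1. In Tg+ below it was 9 without I/R replicate 3. In wild type above it was 1 without I/R or sham replicate 1 or 2. In wild type below it was 1 without any one I/R array. Tg+ against wild type in I/R below gave 0 without Tg+ replicate 2 or 3 or wild-type replicate 2, and 1 without wild-type replicate 3. For below against above it was 1 without Tg+ I/R above replicate 2 and 2 with wild-type I/R below replicate 1 left out. Of 24 calls of single genes, 9 were kept in every such fit, 14 were lost without the weak arrays, 23 with the slide block, and none changed sign under the 12 other settings.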
